A study of Mus musculus with 223 samples.

Results

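The TALE homeobox genes of the Meis, Pbx and Pknox families were followed in single Htr3a-GFP+ interneurons (INs) of the mouse cortex. The 8 members, Meis1, Meis2, Meis3, Pbx2, Pbx3, Pbx4, Pknox1 and Pknox2, were listed by name and matched through their Ensembl identifiers, and all 8 were found among the 43629 genes of the table. The cells came from whole cortex of mice carrying a GFP reporter driven by Htr3a, chosen to label mainly INs of the caudal ganglionic eminence, and were sorted on GFP at embryonic day 18 (E18) or at postnatal day 2 or 5 (P2, P5). The labels name no treatment, and all cells carried the reporter. The 82 E18 cells have no type. The submitters assigned the postnatal cells to 3 types from their transcriptomes, giving 22 type 1, 31 type 2 and 13 type 3 cells at P2, and 34, 19 and 22 at P5. Each age was 1 pool of several brains, so cells are not replicates of an age, and the types rest on these very counts. Values are therefore given with counting intervals and without a test, and differences between ages or types describe these cells only. P5 cortices were dissected in another medium and dissociated at another temperature and for longer than those of E18 and P2, so age and dissociation cannot be told apart there.

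TALE homeodomain proteins carry a loop of extra residues between the first helices of the homeodomain. MEIS and PKNOX (PREP) proteins bind PBX proteins through their N-terminal parts, and the pairs bind DNA together, often with HOX or other homeodomain partners. PBX proteins rely on a MEIS or PKNOX partner to enter or stay in the nucleus. In the forebrain Meis2 is known for its part in the making of striatal and olfactory bulb neurons, where it works with Pax6 and Dlx2.

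The homeobox is shown for the 4 members above 10 RPM in the most cells, because it is the conserved stretch that names the class and in which reads of related genes could be hard to place. Each sequence is the 63 codons of the coding strand, 5′ to 3′, from an annotated GENCODE transcript (GRCm38), with codons 27 to 29, the extra loop of the class, in capitals.
Meis2: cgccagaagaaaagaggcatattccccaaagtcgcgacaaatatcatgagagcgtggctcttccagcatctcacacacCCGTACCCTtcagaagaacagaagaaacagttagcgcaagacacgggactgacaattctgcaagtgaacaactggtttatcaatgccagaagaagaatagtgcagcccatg
Meis1: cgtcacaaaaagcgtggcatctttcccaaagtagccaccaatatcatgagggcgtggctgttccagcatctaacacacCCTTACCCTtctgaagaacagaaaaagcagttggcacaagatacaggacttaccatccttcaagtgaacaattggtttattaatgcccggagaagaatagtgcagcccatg
Pbx3: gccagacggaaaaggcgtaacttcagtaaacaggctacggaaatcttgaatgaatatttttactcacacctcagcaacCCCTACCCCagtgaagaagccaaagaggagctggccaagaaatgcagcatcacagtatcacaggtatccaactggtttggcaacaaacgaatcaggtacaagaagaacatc
Pknox1: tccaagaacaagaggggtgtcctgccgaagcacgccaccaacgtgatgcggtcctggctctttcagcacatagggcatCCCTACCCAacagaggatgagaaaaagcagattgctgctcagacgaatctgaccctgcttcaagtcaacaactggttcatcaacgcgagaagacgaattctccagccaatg

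In all 4 the homeobox is coding sequence spread over 3 exons. For Meis2 it lies in exons 8 to 10 of 12, within chr2:115868767-116000205 on the minus strand. For Meis1 it lies in exons 8 to 10 of 12 (chr11:18885615-18941733, minus strand), for Pbx3 in exons 4 to 6 of 9 (chr2:34178295-34213256, minus strand) and for Pknox1 in exons 8 to 10 of 11 (chr17:31599569-31603223, plus strand). Meis1 and Meis2 encode 62 of 63 identical residues there but share 84.1% of bases, and their longest identical run is 21 bases. Meis2 and Pknox1 share 66.1% of these bases, and Meis2 and Pbx3 share 50.8%. The reads were pairs of 50 bases, and 0 stretches of 50 bases were common to the annotated transcripts of any 2 of the 8 members, so a read matching one member without mismatch could not match another. Outside the family, 16.98% of the Meis1 stretches of 50 bases also occur in transcripts of other genes, against 0.190% for Meis2 and 0% for Pbx3. Exons of Meis1 overlap Gm37818 on the same strand by 1029 bases and Gm16140 on the opposite strand by 896 bases. Pknox1 exons overlap AC166172.4 on the opposite strand, and Pbx2 exons overlap Gpsm3 on the same strand by 227 bases. Values for Meis1, Pknox1 and Pbx2 are uncertain to that extent. Meis2, Meis3, Pbx3, Pbx4 and Pknox2 exons overlap no other gene in this GENCODE annotation. The authors counted reads on an Ensembl annotation, and whether it held the same overlapping genes was not checked.

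Levels are given as RPM, the read pairs of a gene per 1000000 mapped read pairs of the cell, and 10 RPM served as the threshold of expression. The pooled RPM of a group is its summed read pairs over its summed depth. Its 95% Poisson interval, like the exact 95% binomial interval of a share, covers counting error only and not the spread between cells or animals. Depth ran from 3707601 to 15840130 mapped read pairs per cell, and P2 type 3 cells were the shallowest group (median 6483871). P5 type 3 cells had 32.1% of mapped pairs on genes (median), against 55.2% in P5 type 1 and 55.5% in P5 type 2. A number in the sample descriptions divides the cells into 4 library sets (A, B, C and D), and the labels do not explain it. All P2 cells are in set A, which no other age shares, so P2 and set A cannot be told apart. At least 2 of 7 IN markers (Dlx1, Dlx2, Dlx5, Dlx6, Gad1, Gad2 and Htr3a) were above 10 RPM in 75 of 82 E18 cells, in 34 of 34 P5 type 1 cells and in 10 of 13 P2 type 3 cells.

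Meis2 (chr2:115863064-116065839, minus strand) was the most abundant member in type 1 INs at P5. Its level in the 34 P5 type 1 cells ran from 0.346 to 2102.0 RPM with a median of 536 RPM, and 33 of them (97.1%, 95% interval 84.7 to 99.9%) were above 10 RPM. The lowest Meis2 value among those 33 was 86.1 RPM, so the type 1 cells at P5 formed 1 high group and a single cell near 0. In the 22 P2 type 1 cells Meis2 ran from 0 to 1159.5 RPM with a median of 31.2 RPM. There 13 cells (59.1%, 36.4 to 79.3%) were above 10 RPM, and the rest lay at low values, so that type 1 at P2 held cells with and without Meis2. The pooled Meis2 level was 192.7 RPM (190.8 to 194.5) in P2 type 1 and 673 RPM (670 to 676) in P5 type 1.

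In the other types most cells had little Meis2. Of the P2 type 2 cells 3 of 31 were above 10 RPM, with a median of 0.438 and a highest value of 96.2 RPM. Among P5 type 2 cells 7 of 19 (36.8%, 16.3 to 61.6%) were above 10 RPM, with a median of 1.96 and a highest value of 1234.1 RPM, and these overlapped the type 1 range. Of those 7 cells 4 had at least 2 of 5 astrocyte or radial glia markers (Gfap, Aldoc, Aqp4, Slc1a3, Fabp7) above 10 RPM, against 0 of the 12 without Meis2, and the summed level of these markers had a median of 554 RPM in the former and 1.10 RPM in the latter. The part of such cells in the type 2 value was not tested. Without the 5 P5 type 2 cells that had 2 markers of any of 5 other cell types, Meis2 was above 10 RPM in 2 of 14. In type 3 a single cell was above 10 RPM at each age. The P2 type 3 cell reached 915 RPM and alone gave the pooled value of 63.9 RPM, which is 0.258 RPM without it. The P5 type 3 cell reached 97.9 RPM, and the pooled value of 4.67 RPM is 1.17 RPM without it.

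Meis1 (chr11:18879817-19018985, minus strand), the close relative of Meis2, was high in fewer type 1 cells. It was above 10 RPM in 9 of 22 P2 type 1 cells (40.9%, 20.7 to 63.6%) and in 18 of 34 P5 type 1 cells (52.9%, 35.1 to 70.2%). Over the P2 type 1 cells it ran from 0 to 2001.8 RPM with a median of 1.53 RPM, and over the P5 type 1 cells from 0 to 1311.2 RPM with a median of 33.3 RPM. The pooled Meis1 level was 196.5 RPM (194.6 to 198.3) at P2 and 203.1 RPM (201.6 to 204.6) at P5, and 120.4 and 169.9 RPM without the highest cell of each group. Its cells split into 2 groups, since no P2 type 1 cell lay between 3.69 and 26.2 RPM. Outside type 1 Meis1 was above 10 RPM in 1 of 31 and 2 of 19 type 2 cells and in 1 of 13 and 1 of 22 type 3 cells, at P2 and P5. The P2 type 3 cell had 329 RPM and the P5 type 3 cell 702 RPM, and both had under 1 RPM of Meis2. Low counts were widespread for several members. At E18, 77 of 82 cells had at least 1 Meis1 read pair but 73 of them lay at or under 10 RPM. For Meis2 these counts were 70 and 59, for Pknox1 61 and 31, and for Pbx3 20 and 14. The origin of these low counts was not tested.

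Meis3 (chr7:16175090-16186504, plus strand), the third MEIS gene, was found in a few cells of most groups. It was above 10 RPM in 13 of 82 E18 cells (15.9%, 8.72 to 25.6%), in 5 of 31 P2 type 2 cells and in 5 of 34 P5 type 1 cells, where its highest values were 655, 923 and 341 RPM. It was above 10 RPM in 0 of 22 P2 type 1 cells, which allows a share of up to 13.6% (a count of 3 cells), and in 0 of 13 P2 type 3 cells, so at P2 all cells above 10 RPM were type 2. At P5, 1 of 19 type 2 cells and 2 of 22 type 3 cells passed 10 RPM too. It passed 25% of cells in no group and was not compared. The median was 0 RPM in all 7 groups, so the pooled Meis3 levels rest on a few cells. In P2 type 2 it was 51.3 RPM, and 17.3 RPM without the highest cell.

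Pbx3 (chr2:34171457-34373142, minus strand) encodes a PBX partner of the MEIS proteins. It was above 10 RPM in 10 of 22 P2 type 1 cells (45.5%, 24.4 to 67.8%), against 2 of 31 type 2 and 0 of 13 type 3 cells. At P5 the count was 21 of 34 type 1 cells (61.8%, 43.6 to 77.8%), 8 of 19 type 2 cells (42.1%, 20.3 to 66.5%) and 6 of 22 type 3 cells (27.3%, 10.7 to 50.2%). The intervals of these 3 shares overlap. The highest value was 1828.2 RPM in type 1, 105.2 RPM in type 2 and 80.5 RPM in type 3, and 13 of the 34 type 1 cells lay above every cell of the other types. The pooled level was 187.9 RPM (186.5 to 189.4) in P5 type 1, 25.5 RPM in type 2 and 12.0 RPM in type 3. At P2, type 1 cells ran from 0 to 1357.9 RPM with a median of 0.0527 RPM, and the pooled value of 99.3 RPM is 41.3 RPM without the highest cell.

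The other PBX genes listed were rare. Pbx2 (chr17:34591266-34597400, plus strand) was above 10 RPM in 1 cell of the series, a P2 type 3 cell with 55.9 RPM. Among P5 type 1 cells it had 0 read pairs in 34 cells. Pbx4 (chr8:69832491-69872292, plus strand) was above 10 RPM in 12 cells of the series (5.38%, 2.81 to 9.21%), of which 6 were E18 cells. Its highest value was 553 RPM in 1 P2 type 1 cell, and no other P2 type 1 cell had a Pbx4 read pair. Of the 12 E18 cells with at least 2 excitatory neuron markers above 10 RPM, 4 were above 10 RPM for Pbx4, against 2 of the other 70, and the part of such cells in the E18 value was not tested.

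Pknox1 and Pknox2 were found at all 3 ages, and Pknox1 in few type 3 cells. Pknox1 (chr17:31564734-31607693, plus strand) was above 10 RPM in 30 of 82 E18 cells (36.6%, 26.2 to 47.95%). At P2 it passed 10 RPM in 6 of 22 type 1 cells, 11 of 31 type 2 cells and 1 of 13 type 3 cells. At P5 it did so in 15 of 34 (44.1%, 27.2 to 62.1%), 6 of 19 (31.6%, 12.6 to 56.5%) and 2 of 22 cells (9.09%, 1.12 to 29.2%). Its median among P5 cells was 7.92 RPM in type 1, 4.28 RPM in type 2 and 0.140 RPM in type 3, so type 3 was the low one. Pknox2 (chr9:36890982-37147407, minus strand) was above 10 RPM in 15 of 82 E18 cells (18.3%, 10.6 to 28.4%), in 4 of 31 P2 type 2 cells and in 0 of 22 P2 type 1 cells, which allows a share of up to 13.6%. The 13 P2 type 3 cells had 0 Pknox2 read pairs. At P5, 3 of 34, 2 of 19 and 2 of 22 cells passed 10 RPM, and the highest value was 92.1 RPM there, against 979 RPM at E18.

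**Figure D1:**
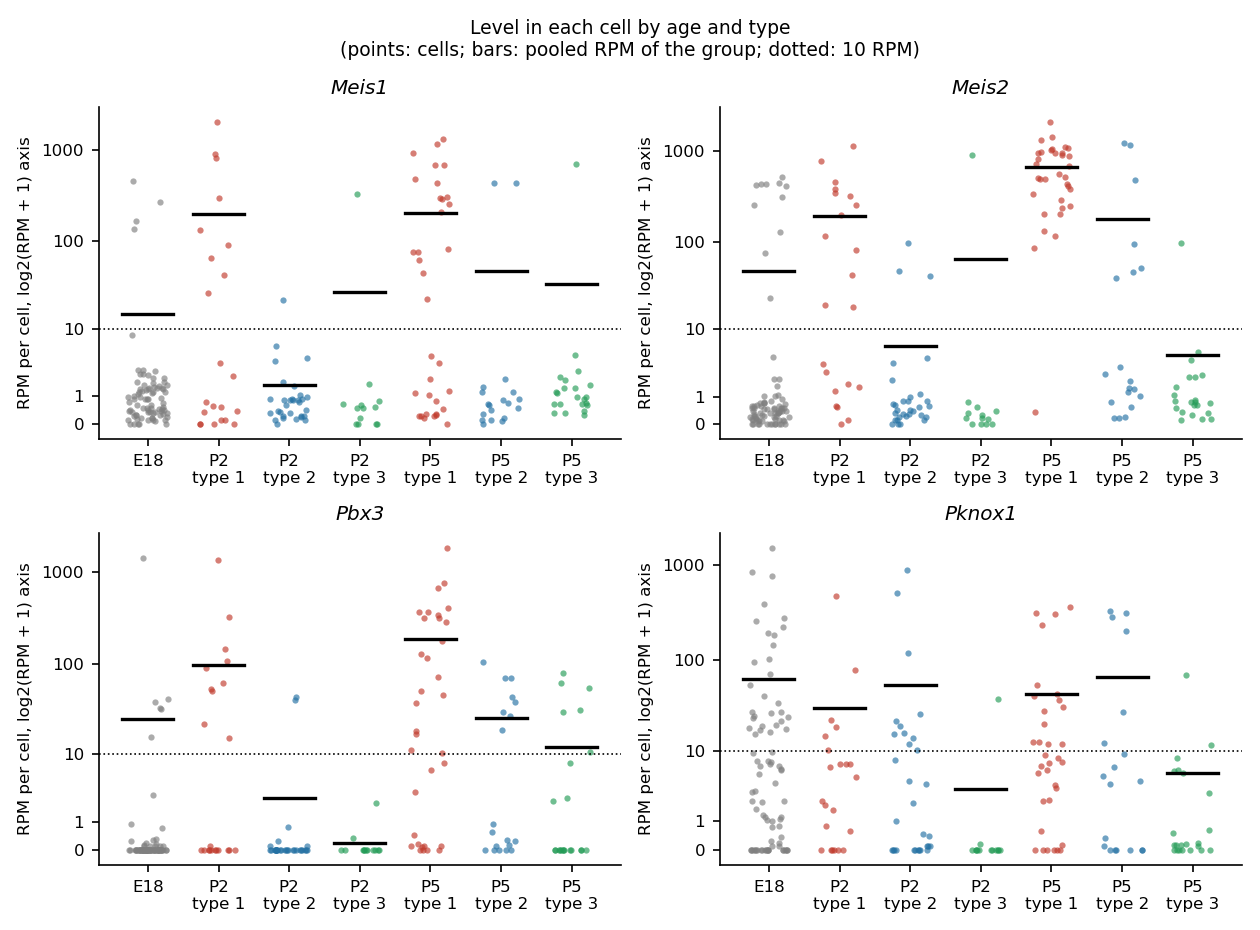
RPM of Meis1, Meis2, Pbx3 and Pknox1 in each cell (points) on a log2(RPM + 1) axis, by age and type, with the pooled RPM of each group as a bar and 10 RPM dotted. Meis2 is above 10 RPM in 33 of 34 P5 type 1 cells, and Pknox1 is above it in 15 of these 34 and in 30 of 82 E18 cells.

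**Figure D2:**
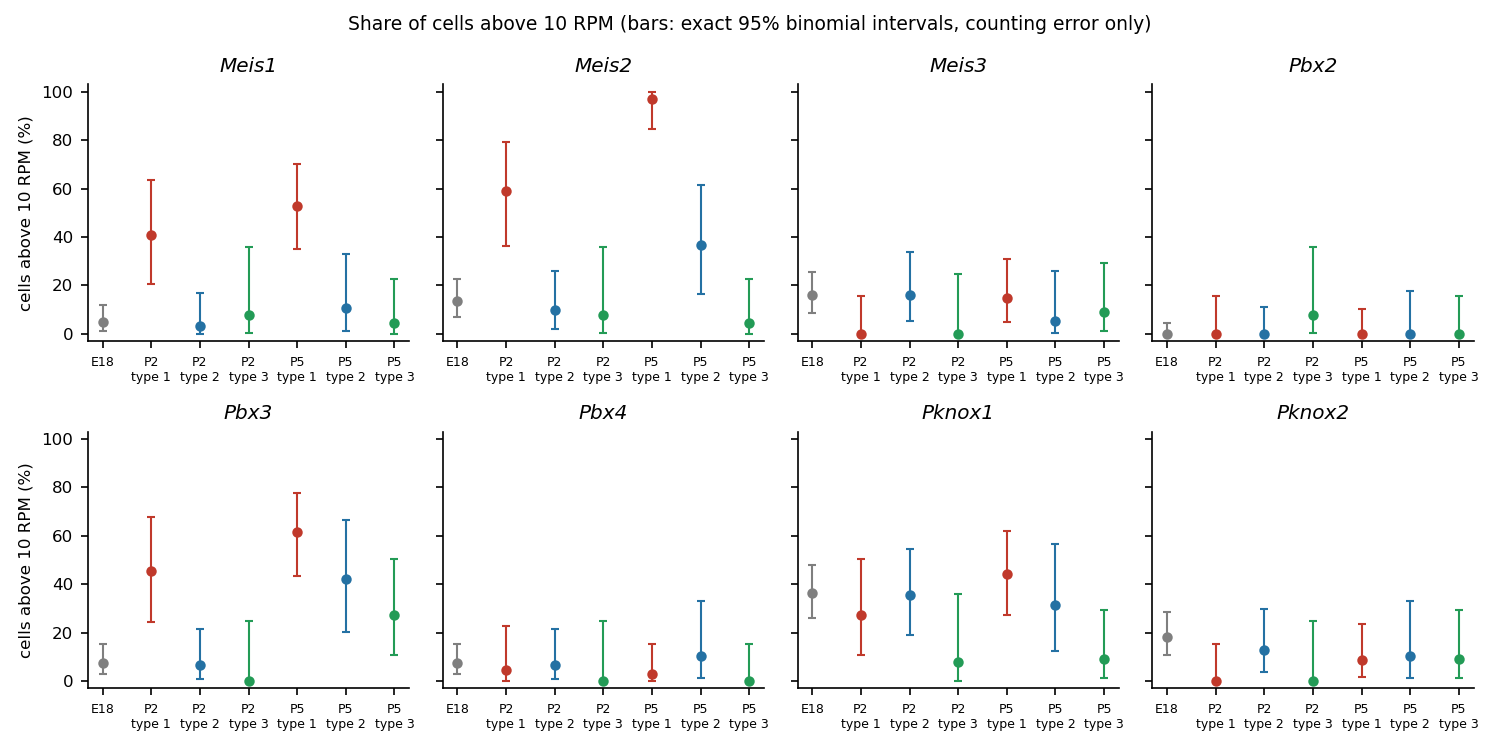
Share of cells above 10 RPM for the 8 members in the 7 groups, in percent, with exact 95% binomial intervals that cover counting error only. Meis1, Meis2 and Pbx3 have their highest shares in type 1 at both postnatal ages, and Pbx2 is near 0 in all groups but P2 type 3.

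The first comparison asked which members set type 1 apart from the other 2 types of its age. A fold is the log2 of the pooled RPM of one side over that of the other, after adding 1 RPM to each. A gene was compared when 25% or more of the cells on either side passed 10 RPM, and called when the fold reached 1 with that share on the higher side. At P2, 4 of the 8 members could be compared, and 3 of them (Meis1, Meis2 and Pbx3) were called higher in type 1 and 0 lower. Of all 3211 genes compared, 14.5% were called higher and 22.1% lower. At P5 the same 3 of 4 members were called higher and 0 lower, where 21.4% of 3940 genes were called higher and 14.8% lower. The fourth, Pknox1, was not called at either age, and at P5 its call depended on the library set. At P2 Meis1, Meis2 and Pbx3 passed the share through type 1 only (40.9, 59.1 and 45.5% against 4.55, 9.09 and 4.55%). So did Meis1 and Meis2 at P5 (52.9 and 97.1% against 7.32 and 19.5%). Such members could only be called higher, so these counts are no independent evidence of a direction. Meis3 and Pknox2, lower in type 1 at P2 (log2 folds -4.87 and -3.92), passed on neither side. With a share of at least 50% in place of 25%, the count of members higher at P2 was 1 (Meis2).

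The log2 fold of Meis1 was 4.62 at P2 and 2.32 at P5, that of Meis2 3.30 and 2.83, and that of Pbx3 4.99 and 3.24. For Pknox1 it was -0.49 and 0.25. The median gene compared lay at -0.09 at P2 and 0.20 at P5. Leaving out the highest cell on each side gave 5.64 and 2.72 for Meis1, 4.67 and 3.46 for Meis2 and 4.33 and 3.06 for Pbx3, so these directions did not rest on 1 cell. For Pknox1 it gave -1.30 and 0.24. Without the cells that had 2 markers of another cell type, the folds at P5 were 2.42, 3.66 and 3.11. The library sets moved the type 1 folds at P5. Within sets B, C and D the log2 fold of Meis2 was 5.78, 5.59 and 2.26, and it was 5.64 without set D. That of Pbx3 was 2.06, 3.86 and 2.40. The log2 fold of Pknox1 in type 1 was -2.90 within set B, -0.45 within set C and 1.74 within set D. It passed the call threshold within set D, without set B (1.07) and as a difference of mean log2(RPM + 1) per cell (1.38). The log2 fold of Meis1 was 6.91 within set C and 3.72 within set D, and leaving out set D took it to 0.74, which ended the call. Within library set B, Meis1 was lower in type 1, with a log2 fold of -1.50. There 3 of 11 type 1 cells were above 10 RPM (pooled 82.6 RPM). The 2 type 3 cells of that set pooled to 385 RPM because of 1 cell. The 2 type 2 cells of set B also pooled above the type 1 cells, because of 1 cell with 433.77 RPM. The type 3 cell was therefore not the only high cell outside type 1 in that set.

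**Figure D3:**
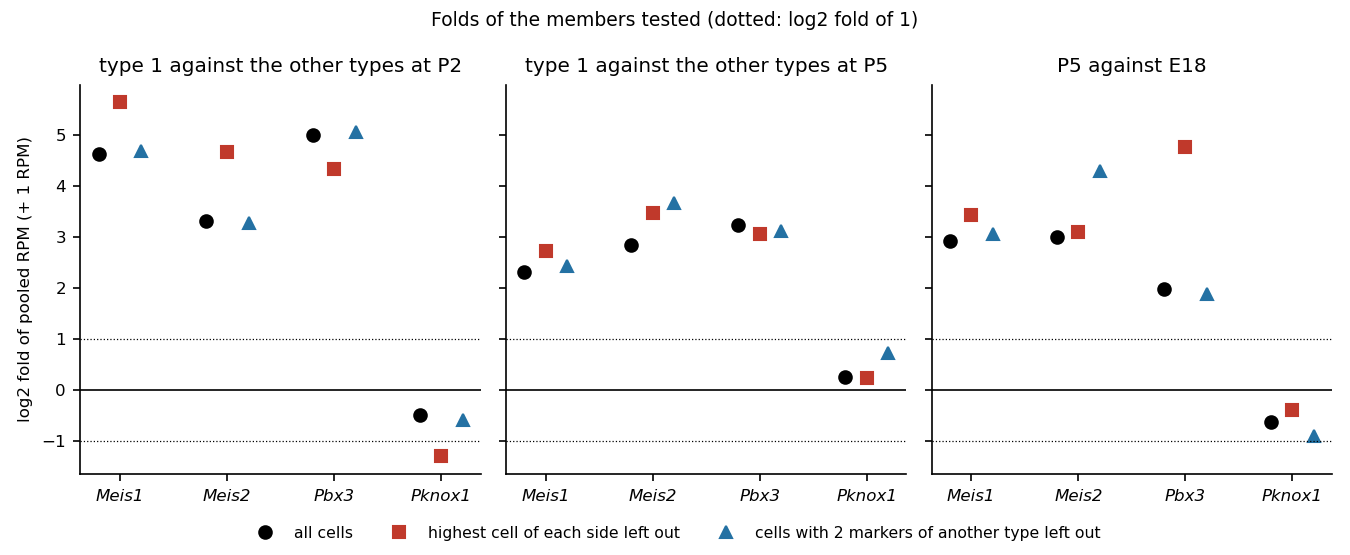
Log2 folds of pooled RPM (1 RPM added) for the 4 members compared, in type 1 against the other types at P2 and P5 and in P5 against E18, with all cells (circles), without the highest cell of each side (squares) and without cells that had 2 markers of another cell type (triangles). Every symbol of Meis1, Meis2 and Pbx3 lies above a log2 fold of 1, and every symbol of Pknox1 lies below it.

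Because Meis1 and Meis2 were high in the same type, the RefSeq promoter windows (GRCm38.p6, 250 bases before the RefSeq start and 50 after) of both are shown, in the direction of transcription, with the letters TGAT, the core that PBX proteins bind, in capitals on either strand. The Meis2 window lies wholly inside the GENCODE gene given above, whose annotated start is further upstream.
Meis1, chr11:19018920-19019219, minus strand: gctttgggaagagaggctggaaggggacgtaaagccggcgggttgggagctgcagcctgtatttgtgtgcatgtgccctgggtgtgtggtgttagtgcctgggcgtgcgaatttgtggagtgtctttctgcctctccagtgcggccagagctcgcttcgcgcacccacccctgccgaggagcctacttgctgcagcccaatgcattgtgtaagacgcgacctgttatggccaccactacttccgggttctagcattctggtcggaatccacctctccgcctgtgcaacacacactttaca
Meis2, chr2:116064570-116064869, minus strand: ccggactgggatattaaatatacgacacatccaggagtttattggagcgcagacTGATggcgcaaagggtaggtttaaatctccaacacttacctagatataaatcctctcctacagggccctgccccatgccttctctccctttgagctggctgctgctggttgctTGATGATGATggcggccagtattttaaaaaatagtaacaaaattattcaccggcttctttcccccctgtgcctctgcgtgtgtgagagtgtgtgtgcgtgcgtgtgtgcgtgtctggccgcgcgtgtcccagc
TGAT occurred 4 times in the Meis2 window and 0 times in that of Meis1, and 72.9% of 32851 promoter windows of this length hold it. The MEIS letters TGACAG (in 19.2% of windows) and the longer PBX letters TGATTGAT (in 0.746%) were in neither. The windows of 5 members were in the table, and these matches describe letters only.

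Types 2 and 3 were compared in the same way. In type 2 at P2 Pknox1 was called higher, with a log2 fold of 1.19, where 23.9% of genes were, and 3 members (Meis1, Meis2, Pbx3) lower, where 9.12% of genes were. The Pknox1 call was lost without the highest type 2 cell (0.27), with TMM factors (0.85), DESeq2 size factors (0.74), a pseudocount of 10 RPM (0.95) and the mean log2(RPM + 1) per cell (0.63). The folds of the 3 lower members were -5.82, -4.46 and -4.31. The same members were called in the same directions at P5, where 25.2% of genes were called higher and 8.71% lower. There the folds were -1.64 for Meis1, -1.34 for Meis2, -2.30 for Pbx3 and 1.07 for Pknox1. At P5 the Pknox1 call was near the threshold and was lost without the highest type 2 cell (0.78), with the total count on genes (0.75), TMM factors (0.88), DESeq2 size factors (0.96), a pseudocount of 10 RPM (0.89) and the mean log2(RPM + 1) per cell (0.41). It was also lost without set B (0.36), without set C (0.999), within set D (-0.045) and without the cells that had 2 markers of another cell type (0.70). Meis1 turned to 0.31 within set B, and Meis2 was at -0.17 within set D and -0.85 without set C. Pooled Meis2 in P5 type 2 was 17.5 RPM in set B, 24.8 RPM in set C and 244 RPM in set D. In P5 type 1 it was 661, 781 and 582.5 RPM, so type 2 lay further below type 1 in sets B and C. In type 3, 1 of 2 members compared at P2 was called lower (Pknox1, -3.37) and 0 higher, where 40.3% of genes were lower and 12.1% higher. The other, Meis2, was at -0.40, at 0.13 with TMM factors and 0.45 with DESeq2 size factors, and at -5.74 without the highest cell on both sides, so 1 cell decided whether it was called. At P5 all 4 were called lower, where 42.6% of genes were lower and 11.7% higher, with folds of -2.14 for Meis1, -6.47 for Meis2, -3.34 for Pbx3 and -3.02 for Pknox1. The median gene lay at -0.58 at P2 and -0.74 at P5 in type 3, and relative to it Meis2 at P5 was at -5.73 and Meis1 at -1.40. The Meis1 fold at P5 was -6.13 without the highest type 3 cell. Meis1 turned to 2.03 within set B and to 0.10 without set D. Another scaling shifted the median gene by up to 0.83 and moved the split of all calls. For type 3 at P5, 21.6% of calls were higher with mapped read pairs and 46.95% with the total count on genes. For type 2 the share of calls that were higher went from 72.4% to 49.6% at P2 with DESeq2 size factors and from 74.3% to 55.8% at P5 with the total count on genes. For type 3 at P2 it went from 23.1% to 45.8% with DESeq2 size factors, and for type 1 at P5 from 59.1% to 47.4% with the total count on genes.

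The next comparison set P5 against E18 over all cells. Meis1, Meis2 and Pbx3 were called higher at P5 and 0 of the 4 members compared lower, where 6.63% of 3952 genes were called higher and 14.2% lower. Their log2 folds were 2.92, 2.99 and 1.97, and that of Pknox1 was -0.63. The size of these folds moved with the library sets, of which set B held 48 of 82 E18 cells and 15 of 75 P5 cells. Within sets B, C and D the fold was 5.98, 2.21 and 1.43 for Meis1, 5.26, 2.55 and 1.40 for Meis2 and 2.00, 5.19 and 3.44 for Pbx3. For Pknox1 it was -0.98, -0.21 and 0.56, and 0.32 without set B, so its sign turned. Markers of INs of another origin moved with age too. At least 2 of 4 markers of medial ganglionic eminence INs (Lhx6, Sst, Nkx2-1 and Sox6) were above 10 RPM in 44 of 82 E18 cells and in 0 of 75 P5 cells. Their summed level ran from 0.201 to 3601.3 RPM at E18 (median 312 RPM) and had medians of 0.782, 1.65 and 1.82 RPM in types 1, 2 and 3 at P5. Of the 4 markers, Nkx2-1 was above 10 RPM in no cell of either age. Among E18 cells, 5 of the 11 with Meis2 and 39 of the 71 without had 2 such markers. The part of these cells in the age folds was not tested. With DESeq2 size factors 67.7% of all calls were higher in place of 31.8%, while Meis2 relative to the median gene was 3.20 with mapped read pairs and 3.21 with these factors. Pooled Meis2 was 46.7 RPM at E18 and 378 RPM at P5, and 11 of 82 cells (13.4%, 6.89 to 22.7%) against 41 of 75 (54.7%, 42.7 to 66.2%) were above 10 RPM. Pooled Meis1 was 15.0 RPM with 4 of 82 cells at E18, and 120 RPM with 21 of 75 cells at P5. Pbx3 was above 10 RPM in 6 of 82 and 35 of 75 cells. Its pooled E18 level of 25.2 RPM came from 1 cell of 1445.4 RPM and is 1.75 RPM without it. Ages differ in their mix of types, and E18 cells have none, so a change within a type cannot be told apart from a change in the mix.

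Meis2 at E18 moved with markers of excitatory neurons. Of the 11 E18 cells with Meis2 above 10 RPM, 7 had at least 2 of 5 such markers (Slc17a7, Slc17a6, Neurod2, Neurod6, Tbr1) above 10 RPM, against 5 of the 71 without. The summed marker level had a median of 515 RPM (0 to 1739.2) in the former and 0.414 RPM (0 to 1011.6) in the latter, and Slc17a7 was above 10 RPM in none of the Meis2 cells. At least 2 IN markers were above 10 RPM in 8 of the 11 and in 67 of the 71. Put the other way, Meis2 was above 10 RPM in 7 of 12 cells with 2 excitatory markers (58.3%, 27.7 to 84.8%) and in 4 of 70 without (5.71%, 1.58 to 13.99%). The cells with Meis2 were also uneven over library sets, 1 of 48 in set B, 2 of 9 in set C and 8 of 25 in set D. The 12 cells with 2 excitatory markers were uneven too, with 2 in set B, 1 in set C and 9 in set D. Cells with Meis2 had a median of 3207 genes above 10 RPM, against 2448 in those without. The part of the cells with excitatory markers, of the library set and of the number of genes in the E18 value was not tested. Without the cells that had 2 markers of another cell type, the P5 against E18 folds were 3.06 for Meis1, 4.30 for Meis2 and 1.87 for Pbx3. In the deposited t-SNE coordinates 5 of the 11 E18 cells with Meis2 lay nearest to type 1 cells, against 11 of 71 without. For Pknox1 these counts were 10 of 30 and 6 of 52, so nearness to type 1 did not go with Meis2 alone, and the coordinates were made from these same counts. Among E18 cells with fewer than 2 excitatory markers the counts for Meis2 were 2 of 4 and 11 of 66.

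**Figure D4:**
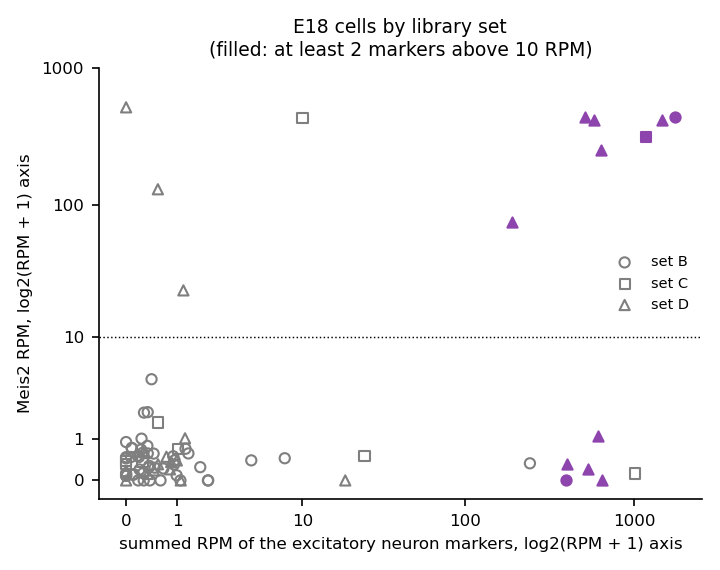
Meis2 RPM of each E18 cell against the summed RPM of the 5 excitatory neuron markers, both on log2(RPM + 1) axes, with symbols for the library set and filled symbols for cells with at least 2 markers above 10 RPM. Of the 11 cells above the dotted line at 10 RPM, 7 are filled and 8 are from set D.

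Members were then counted together in each cell. The median number of the 8 above 10 RPM was 3 in P5 type 1 cells, 1.5 in P2 type 1, 1 in E18 and in type 2 at both ages, 0 in P2 type 3 and 0.5 in P5 type 3. None of the 34 P5 type 1 cells had 0 members, against 9 of 13 P2 type 3 cells. The number of genes above 10 RPM moved with these counts in part, with a median of 2258 in P5 type 1, 1437 in P2 type 3 and 2738 in P5 type 2, and its part in them was not tested. A Meis and a Pbx member were together in 22 of 34 P5 type 1 cells (64.7%, 46.5 to 80.3%), in 4 of 19 type 2 cells (21.1%, 6.05 to 45.6%) and in 2 of 22 type 3 cells (9.09%, 1.12 to 29.2%). At P2 they were together in 6 of 22 type 1 cells (27.3%, 10.7 to 50.2%), 3 of 31 type 2 cells (9.68%, 2.04 to 25.8%) and 0 of 13 type 3 cells, which allows a share of up to 23.1%. At E18 the count was 2 of 82 (2.44%, 0.297 to 8.53%). Every P5 type 1 cell with a Pbx member also had a Meis member, but all 34 cells had a Meis member, so this follows from the share of Meis. A Pbx member was in 22 of 34, 10 of 19 and 6 of 22 cells of types 1, 2 and 3 at P5. A Meis member was in 34, 7 and 4 of them. Among P2 type 1 cells these counts were 10 and 14 of 22, and at E18 10 and 25 of 82. The counts of both together follow in part from these single shares, and whether they differ from them was not tested.

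The members found together were counted within type 1 at each age. At P2, 8 of the 13 cells with Meis2 also had Meis1, against 1 of the 9 without Meis2. Pbx3 was in 6 of those 13 and in 4 of those 9. All 6 cells with Meis2 and Pbx3 had Meis1, and 4 further cells had Pbx3 with neither Meis gene. Meis1 was thus in 6 of the 10 cells with Pbx3 and in 3 of the 12 without. At P5 Meis2 was in nearly every cell. Meis1 was in 12 of the 21 cells with Pbx3 and in 6 of the 13 without. Over the 22 P2 type 1 cells Pearson's r of log2(RPM + 1) was 0.60 for Meis1 with Meis2, 0.60 for Meis1 with Pbx3 and 0.18 for Meis2 with Pbx3. Over the 34 P5 type 1 cells it was -0.13, 0.23 and 0.31. These values describe cells of 1 pool per age. Among P5 type 2 cells, 3 of the 7 with Meis2 and 5 of the 12 without had Pbx3.

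**Figure D5:**
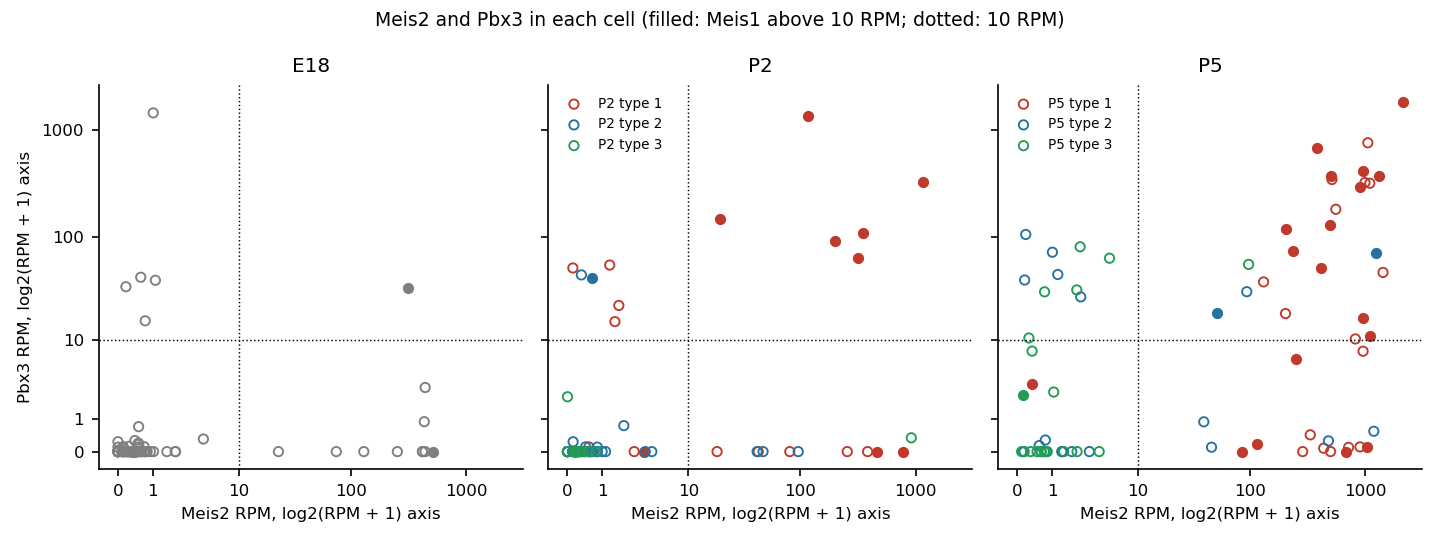
Meis2 against Pbx3 RPM in each cell on log2(RPM + 1) axes, by age, with types in colour, cells above 10 RPM of Meis1 filled and 10 RPM dotted. The upper right field holds 6 P2 type 1 cells, all filled, and 21 P5 type 1 cells, 12 of them filled, beside 3 type 2 cells and 1 type 3 cell at P5 and 1 E18 cell.

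Levels of different genes were compared per kilobase of merged exons, since a longer transcript gives more reads. In P5 type 1 the order of pooled RPM per kilobase was Meis2 (55.9), Pbx3 (30.8), Meis1 (19.3), Meis3 (6.78), Pknox1 (6.21), Pknox2 (0.513), Pbx4 (0.416) and Pbx2 (0). Meis3 and Pknox1 are neighbours whose order rests on 1 cell, since without the highest cell of each gene they were at 2.57 and 5.05. At E18 Pknox1 led with 8.94 RPM per kilobase, ahead of Meis3 (5.33), Pbx3 (4.13) and Meis2 (3.88). Without the highest cell of each gene Pknox1 still led (6.80), but Meis2 (3.31) came before Meis3 (2.99) and Pbx3 was at 0.286, so the order behind Pknox1 rests on single cells. With 1 pool per age there is no spread between samples to set against these orders.

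The genes most like 2 of the members were found over the 66 P2 and 75 P5 cells, among the 6337 genes that passed 10 RPM in 10% or more of these cells. By Pearson's r of log2(RPM + 1), genes among the 5 most like Meis2 were, in alphabetical order, Bcl11a (0.51), Etv1 (0.50), Sp9 (0.52) and Vcan (0.52). Bcl11a, Etv1 and Sp9 encode transcription factors and Vcan the matrix proteoglycan versican. Bcl11a and Etv1 were also among the 5 most like Meis2 by Spearman's rho, and Sp9 and Vcan were not. Meis1 ranked 9 (0.49) and Pbx3 10 (0.48), and Pknox1 ranked 746 (0.19). By Spearman's rho the order of the members turned, with Pbx3 at rank 2 (0.50) and Meis1 at rank 26 (0.39). The 5 most like Pbx3 were Slco2a1 (0.51), Meis1 (0.49), Meis2 (0.48), Fgfr2 (0.45) and Tshz1 (0.41), and Pknox1 ranked 1022. Slco2a1 encodes a prostaglandin transporter, Fgfr2 a fibroblast growth factor receptor and Tshz1 a zinc finger factor. The points are cells that share depth, type and library, so r is a description.

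Other genes of the class and of the pathway were taken from fixed lists. Of 9 other TALE genes (Irx1 to Irx6, Tgif1, Tgif2 and Mkx), 0 passed 10 RPM in 25% or more of the cells in any group, and the 6 Irx genes had no read pair. Of 11 partners, 6 passed that share. At P2, 4 of those 6 were called higher in type 1 (Pax6 2.23, Dlx2 1.67, Tshz1 1.18 and Etv1 3.52, as log2 folds) and 0 lower, where 14.5% of all genes compared were higher and 22.1% lower. At P5, 4 of 6 were higher (Dlx2 2.12, Tshz1 1.63, Etv1 2.12 and Sp8 2.34) and 0 lower, where 21.4% of genes were higher and 14.8% lower. Against E18, 4 of 6 were higher at P5 (Pax6 1.84, Tshz1 2.48, Etv1 1.91 and Sp8 2.76) and 0 lower, where 6.63% of genes were higher and 14.2% lower. The study had described Etv1 and Sp8 in these cells before the list was made, so the counts are not independent evidence of a direction. The Hox partner Hoxa2 had no read pair in any group. Of 16 retinoic acid genes, 0 passed the share in any group. Retinoic acid is a known inducer of Meis genes.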

How the data were processed

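Single Htr3a-GFP+ cells were captured on microfluidic chips whose sites were inspected by microscope, more than 1 chip at E18 and at P5 and a single one at P2, and each cell was its own polyA library (SMARTer and Nextera XT, a chemistry that does not mark strand). The deposited values are raw counts per gene, which the authors made by aligning read pairs to GRCm38 with TopHat2 and counting with HTSeq 0.6.1, per the submitters' processing notes. The strand setting of the counting is not given in the sources used here. The labels do not say which chip held a cell. They give a scaling factor per cell, and RPM is the count times this factor. All cell columns of the table were used, and no cell was filtered here and no doublet caller was run. Symbols were found for 42462 of 43629 gene identifiers.

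Depth ran from 3707601 to 15840130 mapped read pairs per cell (median 9463033). Pooled RPM has an exact Poisson interval and a share of cells an exact binomial (Clopper-Pearson) interval, both at 95% and covering counting error only, since PCR reads without molecular identifiers are not independent molecules. For a share of 0 the upper limit given is 3 cells of the group. Groups follow the age and assigned subgroup in the labels. With 1 pool of brains per age no test was run. The code for folds was tested on simulated data. The members, gene lists and markers were chosen with earlier results of these data known. The genes named are the 8 members, genes among the 5 most like Meis2 and Pbx3, and list genes above 10 RPM in 25% of the cells of a group, and some genes are not reported here. Homeobox sequences, exon overlaps and shared stretches of 50 bases were computed from GENCODE transcripts on GRCm38, and promoter windows come from RefSeq (GRCm38.p6), in which 5 of the 8 members were matched. Alternatives covered library size, pseudocount, thresholds, the highest cell, library sets, depth and, chosen after seeing the data, cells with markers of other cell types. Python 3.11.15, pandas 2.3.3 and scipy 1.17.1 were used, with edgeR 4.0.16 and DESeq2 1.42.0 in R 4.3.3 for scaling factors only.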

Additional observations from a re-analysis of the deposited data

How the results depend on the processing

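Requiring 50% of cells in place of 25% left a count of 1 member (Meis2) called higher in type 1 at P2, and 1 at both ages. At P5 the count of members higher in type 1 was 4 with the mean log2(RPM + 1) per cell, without set B and within set D (Pknox1 added), 4 with no share filter (Meis3 added), and 2 within set B and without set D (Meis1 lost). With no share filter it was 4 at P2 (Pbx4 added). The fold of Meis1 at P5 changed sign within library set B, to -1.50 in type 1, 0.31 in type 2 and 2.03 in type 3, and to 0.10 in type 3 without set D. That of Pknox1 in type 2 at P5 was -0.045 within set D. The share of cells with a Meis and a Pbx member together depended on the threshold. With 1 read pair it was 37.8% at E18, 59.1%, 38.7% and 38.5% in types 1, 2 and 3 at P2, and 88.2%, 78.9% and 54.5% at P5. With 1 RPM it was 18.3% at E18 and 36.4% in P5 type 3. With 50 RPM it was 0% at E18, 0% in P2 type 2, 44.1% in P5 type 1 and 5.26% in P5 type 2. The cause was not tested. No paired analysis was possible because the cell numbers name single cells of 1 pool per age, pair no cells, and the result comes from no test. Comparisons within library sets stand beside the results. With every cell thinned to the smallest depth, Meis1, Meis2 and Pbx3 were called higher in type 1 at both ages. The number of cells limits a share of 0 in 13 cells to 23.1%.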
